A study of Mus musculus with 24 samples.

Results

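The Slc25 family of mitochondrial carriers was read in skeletal muscle that lacks nebulin, a giant protein lying along the thin filaments of the sarcomere. A member was any gene whose single annotated symbol begins with Slc25a, read by its probe set with the highest mean; this gave 46 of the 19938 genes with 1 symbol. Of these 46, 42 were above the dim limit on at least 6 arrays and were tested among 15999 genes. This limit, the 30th percentile of all probe sets on an array, lay between 3.51 and 3.72 on the log2 scale. Below it throughout were Slc25a2, Slc25a21, Slc25a31 and Slc25a54, whose highest value on any array was 3.57. Among the 42 tested, Slc25a53 alone lay below the limit on part of the arrays, at 3.33 to 4.13.

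Members of the family sit mostly in the inner mitochondrial membrane and exchange solutes between the cytosol and the matrix: adenine nucleotides, phosphate, amino acids, acylcarnitines, cofactors and metals. In skeletal muscle they carry ADP in and ATP out for contraction, bring phosphate for ATP synthesis, move reducing equivalents through the malate-aspartate shuttle and admit fatty acids for oxidation. The carriers share a fold of repeated membrane helices, and they are grouped below mostly by the solute they move, where it is settled.

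The 24 arrays fell into 4 groups of 6, from male mice aged 40 to 42 days of mixed background, from C57BL/6J and 1219S6/SvEvTac. Controls and knockouts alike were homozygous for a conditional nebulin allele. The conditional knockout (cKO) mice were also hemizygous for MCK-Cre, a recombinase under the muscle creatine kinase promoter that acts in muscle fibres, and control mice lacked it. Quadriceps, which the submitters call markedly smaller in cKO, and soleus, which they call not significantly smaller, were both read. Nebulin's own transcript (Neb) was 1.45 log2 units lower in cKO quadriceps and 1.14 lower in cKO soleus, with no overlap between genotypes. Array medians lay between 4.74 and 4.94, within a group the arrays' pairwise r was 0.963 to 0.993, and the quadriceps control 4, quadriceps control 6 and soleus control 1 arrays had the lowest weights in limma (0.21, 0.39 and 0.39).

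Markers of several other cells and fibre types moved with the genotype, and others did so little. Over all genes tested, 22.3% were called higher and 17.7% lower in cKO quadriceps, and 13.2% higher and 9.94% lower in cKO soleus. In quadriceps, 10 of 12 macrophage, 5 of 7 adipocyte, 6 of 7 fibro-adipogenic progenitor, all 5 immature fibre and all 10 slow fibre markers were higher in cKO, as were 5 of 6 satellite cell markers. Of the 11 fast fibre markers 5 were lower and 1, Myh2, was higher (11.70 in control, 12.71 in cKO). In soleus, 9 of 12 macrophage, 4 of 7 progenitor, 5 of 5 immature fibre, 3 of 6 satellite cell and 4 of 10 slow fibre markers were higher, while 1 slow fibre marker (Myl3), 8 of 11 fast fibre and 6 of 7 endothelial markers were lower. The log2 of the summed macrophage signal ranged from 9.73 to 10.42 in control and 10.63 to 10.89 in cKO quadriceps, and from 9.55 to 9.93 and 10.02 to 10.52 in soleus. The summed immature fibre signal ranged from 8.29 to 9.05 and 11.74 to 12.55 in quadriceps, and from 9.06 to 10.48 and 11.81 to 12.47 in soleus. Of 7 endothelial markers 0 were called in quadriceps, and of 7 adipocyte markers 0 in soleus. Among 6 muscle identity markers, 1 was higher and 1 lower in quadriceps, and 2 were higher in soleus. Of 5 brown adipocyte markers, 1 was higher in quadriceps, and 1 was higher and 1 lower in soleus. The 4 lymphocyte markers tested gave 0 calls in either muscle. Of the lymphocyte markers, Cd79a and Ms4a1 were dim on all arrays, Cd3d was above the dim limit on 9, and Cd3e, Cd4 and Cd8a were above it on all 24. In whole muscle, fewer cells of a type and less RNA per cell cannot be told apart, and the part of these cells in the carrier values was not tested.

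Promoters were read for the 36 members that matched RefSeq promoters (GRCm38.p6, which is mm10), as 300 bases of which 250 lie before the start site. Stretches of 4 of the 6 members in which a motif or a looser pattern matched are shown, with the motif in capitals. They stand beside what the values did. Slc25a25 (-1.30) and Slc25a36 (1.05) differed most between the control muscles, soleus minus quadriceps, in opposite directions. In cKO, Slc25a34 was called lower in soleus, and Slc25a20 in both muscles. The Slc25a25 stretch is chr2:32424179-32424246, the Slc25a36 stretch chr9:97111165-97111232, the Slc25a34 stretch chr4:141623917-141623983 (all minus strand) and the Slc25a20 stretch chr9:108662027-108662094 (plus strand).
Slc25a25: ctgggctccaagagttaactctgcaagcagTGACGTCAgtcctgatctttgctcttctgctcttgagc
Slc25a36: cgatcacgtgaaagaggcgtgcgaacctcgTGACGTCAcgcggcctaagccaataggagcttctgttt
Slc25a34: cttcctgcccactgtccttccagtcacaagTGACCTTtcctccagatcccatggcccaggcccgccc
Slc25a20: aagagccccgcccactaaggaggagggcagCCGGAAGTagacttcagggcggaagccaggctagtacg
The cyclic AMP response element TGACGTCA begins 150 bases before 1 of the 3 annotated starts of Slc25a25 and 161 before that of Slc25a36. These were the only 2 of the 36 members that hold it on either strand, a share of 5.56% against 2.03% of genes. For every motif the share of genes is over 27025 genes with a RefSeq promoter of 300 bases. It is not limited to the genes tested on the arrays. The estrogen-related receptor core AAGGTCA stood on the opposite strand 119 bases before the promoter start site of Slc25a34 (1 member, 2.78%, against 5.38% of genes). That site lies inside the gene range given for Slc25a34 below, not at its end. The ETS motif CCGGAAGT stood 79 bases before the start of Slc25a20 (2.78% against 4.31%). For MEF2 a loose pattern was searched, which allows any base at its middle positions. It matched in Slc25a10 and Slc25a22 (5.56% against 4.23%). Both matches hold G among these middle bases, and neither they nor the 4.23% were shown to be MEF2 sites. Neither the full estrogen-related receptor motif TCAAGGTCA nor the NRF1 motif occurred in a member's window (0.47% and 1.07% of genes). The motifs AAGGTCA and TCAAGGTCA overlap, and a match describes letters, not binding.

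In quadriceps, 17 of the 42 carriers passed the test (limma, Benjamini-Hochberg over all genes, adjusted p under 0.05, two-sided), a share of 40.5% where 40.0% of all genes tested did. The direction was tilted down: 12 carriers fell (28.6%, against 17.7% of all genes) and 5 rose (11.9%, against 22.3%). The median change over the 42 was -0.14, beside -0.01 over all genes, and 32 of 42 changes were negative, beside 51.7% of all genes. The carriers that fell span phosphate and ATP export, aspartate and acylcarnitine transport and several cofactors, and those that rose were Slc25a24, Slc25a5, Slc25a10, Slc25a17 and Slc25a23. With arrays centred on their 75th percentile the split was 5 higher and 19 lower, while the share of calls that were higher over all genes went from 55.7% to 37.5%.

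In soleus, 10 of 42 carriers passed (23.8%, against 23.1% of all genes tested): 9 fell (21.4%, against 9.94%) and 1, Slc25a24, rose (2.38%, against 13.2%). The median change was -0.13, beside -0.02 over all genes, and 30 of 42 changes were negative, beside 54.5% of all genes. Of the 9 that fell, 6 had also fallen in quadriceps: Slc25a3, Slc25a4, Slc25a12, Slc25a20, Slc25a26 and Slc25a33. The share of calls that were higher over all genes ranged by scaling from 47.3% (75th percentile) to 66.9% (median), against 57.0% as deposited; the carriers gave 1 higher in each.

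The change itself differed between the muscles for 3 of 42 carriers (7.14%, against 12.3% of all genes), namely Slc25a17, Slc25a24 and Slc25a5, all 3 with the more positive change in quadriceps. The split moved with the processing: of the calls, 2 went this way and 1 the other with median centring, 5 and 4 with array weights, 3 and 3 without quadriceps control 4, and 4 and 1 without soleus control 1. Over all genes 7.39% differed in that direction and 4.89% in the other. For the other carriers that passed in 1 muscle and not in the other, a difference between the muscles was not shown.

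**Figure D1:**
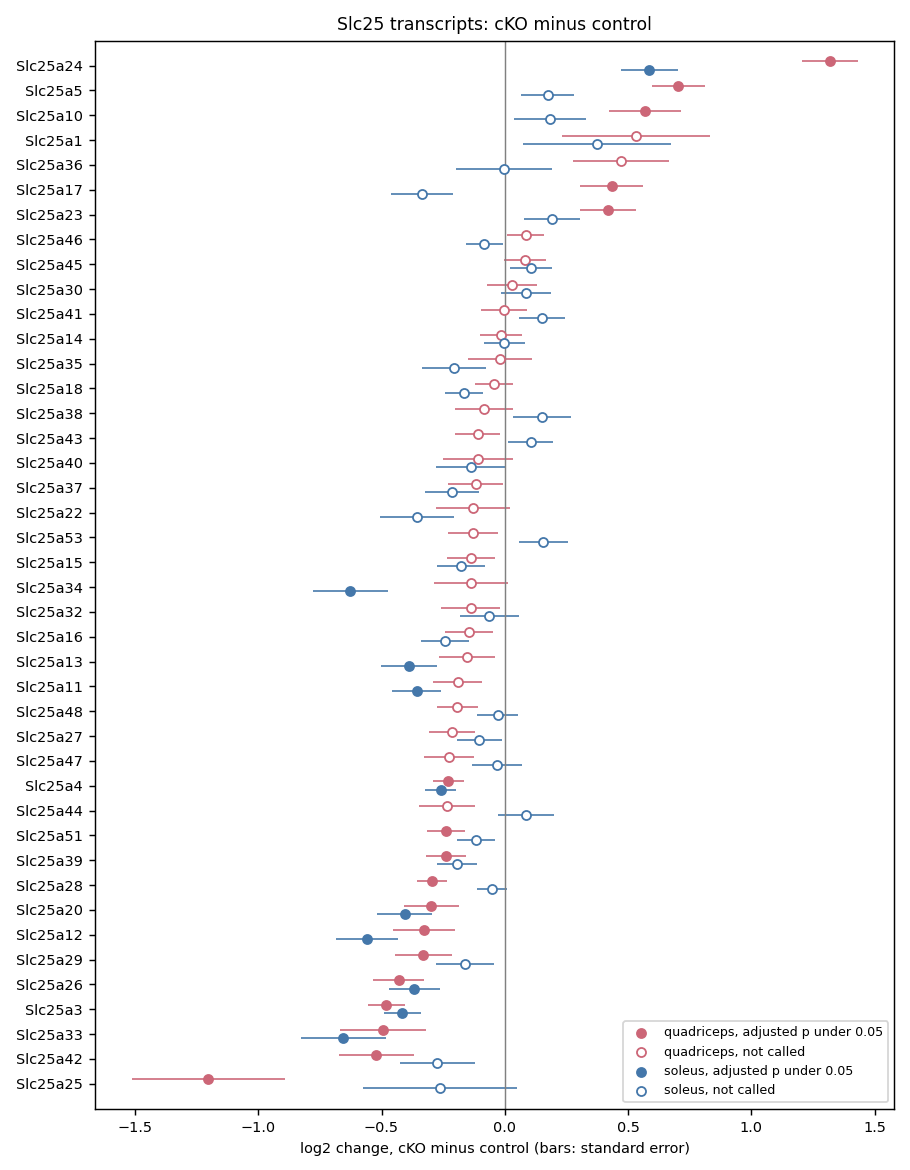
Change of the 42 tested carriers, cKO minus control on the log2 scale, in quadriceps (red) and soleus (blue), with standard errors; filled points have an adjusted p under 0.05. Slc25a24 lies highest in both muscles (1.32 and 0.59), and most other filled points lie left of 0.

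Of the 3 carriers tested that exchange ADP for ATP or bring in phosphate, 2 fell and 1 rose in quadriceps, and 2 fell in soleus. Slc25a3, the phosphate carrier (chromosome 10, 91116574 to 91124046), read from 9.66 to 9.87 (median 9.83) on the control quadriceps arrays and from 9.04 to 9.46 (median 9.32) on the cKO arrays. In soleus its control values ran from 9.91 to 10.26 (median 9.98) and its cKO values from 9.47 to 9.68 (median 9.62). Every cKO array was below every control array in both muscles. The change was -0.48 (SE 0.07, limma adjusted p = 1.1e-05) in quadriceps and -0.42 (SE 0.07, adjusted p = 0.000129) in soleus. Of all carriers tested, 2 in quadriceps had such separated lower groups (4.76%, against 6.06% of all genes), the other being Slc25a28; in soleus there were 4 (9.52%, against 4.96%).

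Slc25a4, the ADP/ATP carrier of muscle and heart (chromosome 8, 46207168 to 46211062), ran from 12.33 to 12.70 (median 12.60) in control and 12.26 to 12.45 (median 12.33) in cKO quadriceps. Here control array 4, at the foot of its group, lay among the cKO values. In soleus the groups did not overlap, at 12.45 to 12.55 (median 12.50) in control and 12.16 to 12.27 (median 12.25) in cKO. The falls were small, -0.23 (SE 0.06, limma adjusted p = 0.00466) and -0.26 (SE 0.06, adjusted p = 0.00264).

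Slc25a5, the ADP/ATP carrier typical of dividing and non-muscle cells (X chromosome, 36795597 to 36798808), went the other way in quadriceps. Its values were 8.59 to 9.23 (median 8.91) in control and 9.48 to 9.89 (median 9.61) in cKO quadriceps. No control array reached a cKO array, and the rise was 0.70 (1.63-fold, SE 0.11, limma adjusted p = 1.02e-05). In soleus the control arrays, 8.85 to 9.50 (median 9.12), enclosed those of cKO, 9.19 to 9.41 (median 9.32), with a change of 0.17 (SE 0.11, adjusted p = 0.274). The difference between the muscles' changes was 0.53 (SE 0.15, adjusted p = 0.0232), or adjusted p = 0.0546 with arrays centred on their median. All 3 probe sets of Slc25a5 gave like changes, 0.70 to 0.73 in quadriceps and 0.17 to 0.20 in soleus; near-identical copies of this gene in the genome make its signal uncertain. Macrophage, progenitor and immature fibre markers rose in the same quadriceps (10 of 12, 6 of 7 and 5 of 5), and their part in Slc25a5 was not tested.

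The ATP-Mg/phosphate carriers, which set the adenine nucleotide content of the matrix and of which all but Slc25a41 have calcium-binding domains, moved in both directions in quadriceps: 2 of 4 rose and 1 fell. In soleus 1 of 4 rose. Slc25a24 (chromosome 3, 109123149 to 109168409) read from 5.94 to 6.46 (median 6.26) in control and from 7.32 to 7.81 (median 7.54) in cKO quadriceps. In soleus the ranges were 5.68 to 6.51 (median 6.36) and 6.56 to 7.03 (median 6.86). The genotypes did not overlap in either muscle, and the cKO quadriceps arrays were also above all cKO soleus arrays. The gain was 1.32 (2.49-fold, SE 0.11, limma adjusted p = 9.02e-10) in quadriceps and 0.59 (SE 0.11, adjusted p = 0.000343) in soleus. These gains differed by 0.73 (SE 0.16, adjusted p = 0.00359; 0.000122 to 0.0114 over 36 alternatives). In quadriceps Slc25a24 and Slc25a5 were the 2 carriers whose higher group did not overlap (4.76%, against 10.1% of all genes), and in soleus Slc25a24 was the 1 such carrier (2.38%, against 7.82%). The immature fibre markers rose more in quadriceps than in soleus as well, with 3 of 5 passing for the difference, and their part in Slc25a24 was not tested.

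Slc25a23, a paralog (chromosome 17, 57043711 to 57059909), rose in quadriceps from a control range of 6.57 to 7.44 (median 6.96) to a cKO range of 7.13 to 7.61 (median 7.39). A single control array, 6, lay within the cKO range. The change was 0.42 (SE 0.11, limma adjusted p = 0.00465), and in soleus it was 0.19 (SE 0.11, adjusted p = 0.245), with values of 7.49 to 8.01 (median 7.56) in control and 7.75 to 7.96 (median 7.87) in cKO. The test of the difference gave 0.23 (SE 0.16, adjusted p = 0.394).

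Slc25a25 (chromosome 2, 32414487 to 32451470), whose promoter stretch with TGACGTCA is printed above, had the largest fall in quadriceps among the carriers. Control quadriceps ran from 6.40 to 8.32 (median 7.19) and cKO quadriceps from 5.55 to 6.85 (median 5.89). Control arrays 4 and 6 overlapped the upper cKO arrays. The fall was -1.20 (2.30-fold, SE 0.31, limma adjusted p = 0.00317). In soleus the ranges of 5.51 to 6.93 (median 5.70) and 5.19 to 6.44 (median 5.68) covered each other (-0.26, SE 0.31, adjusted p = 0.597). The difference between the muscles, -0.94 (SE 0.44), had an adjusted p of 0.168. With the replicate number as a block it was 0.00499, and with the animal as a random block 0.0717. The replicate block joins control and cKO arrays from different mice, here and wherever it is used below. Arrays of the same number in control and cKO quadriceps had r between -0.147 and 0.169. For Slc25a25 the pattern by number given next came from these same values. Without the 3 arrays of lowest weight the difference was -1.49 (adjusted p = 0.0115), a setting chosen after seeing the data.

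Within every group, Slc25a25 was highest on the arrays numbered 1 and 5. These read 8.19 and 8.32 in control quadriceps, where the other arrays lay between 6.40 and 7.37. They read 6.85 and 6.65 in cKO quadriceps, 6.73 and 6.93 in control soleus, and 6.44 and 5.97 in cKO soleus. Of all 15999 genes, 63 had the same pair of numbers highest in all 4 groups, and Slc25a25 was the 1 carrier among them. The labels give 42 days as the age of all 4 arrays numbered 5, and of no others, and 41 days for all 4 numbered 1, as for most others; the pattern is a description.

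Slc25a41, the remaining member of this group, lies next to the dim limit at 3.62 to 4.52 over all arrays, and its changes were 0.00 in quadriceps (adjusted p = 0.98, SE 0.09) and 0.15 in soleus (adjusted p = 0.274, SE 0.09).

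**Figure D2:**
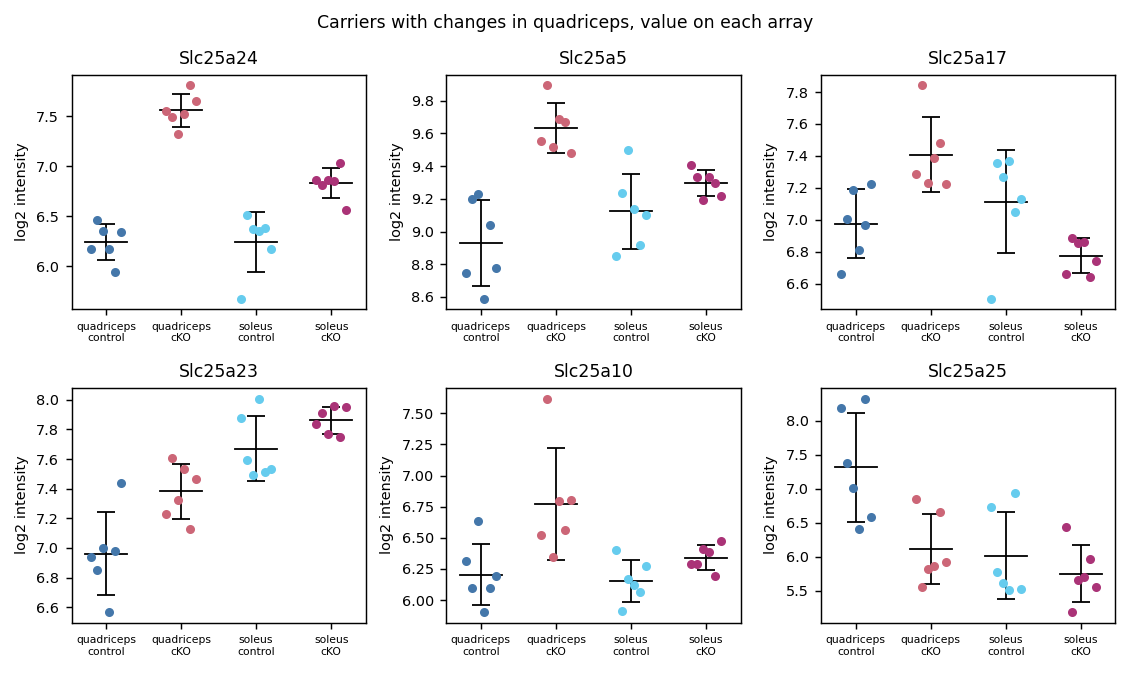
Log2 intensity on each array (points) with group mean and SD (bars) for Slc25a24, Slc25a5, Slc25a17, Slc25a23, Slc25a10 and Slc25a25 in the 4 groups; the vertical scales differ between panels. The cKO quadriceps arrays of Slc25a24 and Slc25a5 stand clear of the controls, and Slc25a25 is spread over 6.40 to 8.32 in control quadriceps.

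The carriers of the malate-aspartate shuttle, which moves reducing equivalents from glycolysis into the matrix, all 3 fell in soleus. Slc25a12 (aralar, the aspartate/glutamate carrier of excitable tissues, chromosome 2, 71274270 to 71367781) ran from 11.42 to 11.77 (median 11.71) in control and 11.00 to 11.39 (median 11.07) in cKO soleus, without overlap. In quadriceps the control arrays spread from 10.70 to 11.91 (median 11.46) around the cKO arrays at 10.95 to 11.24 (median 11.10), and the 10.70 came from control 4. The changes were -0.56 (SE 0.13, limma adjusted p = 0.00149) in soleus and -0.33 (SE 0.13, adjusted p = 0.0388) in quadriceps, or -0.47 in quadriceps without control 4 (adjusted p = 0.000269). The quadriceps call of Slc25a12 ended with median centring (adjusted p = 0.0523), with only the quadriceps arrays in the fit (0.0977) and without quadriceps control 1, 2, 3 or 6 or cKO 2, 3 or 5, at adjusted p between 0.0627 and 0.111.

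Slc25a11, the oxoglutarate/malate carrier of the same shuttle (chromosome 11, 70644019 to 70647531), read 10.54 to 10.68 (median 10.56) in control soleus and 10.11 to 10.30 (median 10.24) in cKO soleus. No values were shared between the genotypes, and the fall was -0.36 (SE 0.10, limma adjusted p = 0.00889). In quadriceps, where control 4 was again lowest at 9.94 in a range up to 10.81 (median 10.62) and cKO ran from 10.11 to 10.53 (median 10.31), the change was -0.19 (SE 0.10, adjusted p = 0.128). Without quadriceps control 4 it was -0.30 (adjusted p = 0.00203).

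Slc25a13 (citrin, the aspartate/glutamate carrier best known from liver, chromosome 6, 6041218 to 6217304) was near the dim limit. Its soleus values were 4.27 to 4.69 (median 4.55) in control and 3.73 to 4.40 (median 4.20) in cKO. The groups overlapped through control 1, and the change was -0.39 (SE 0.11, limma adjusted p = 0.0119), beside -0.15 (SE 0.11, adjusted p = 0.28) in quadriceps.

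Among the shuttle's 4 enzymes, 3 fell in soleus and 2 in quadriceps. Got1, the cytosolic aspartate aminotransferase, changed by -0.73 (SE 0.12, limma adjusted p = 5.4e-05) in soleus and by -0.34 (SE 0.12, adjusted p = 0.0288) in quadriceps. Mdh2, the matrix malate dehydrogenase, changed by -0.41 and -0.35, and its cytosolic counterpart Mdh1 by -0.36 in soleus and -0.08 in quadriceps (adjusted p = 0.418). Got2, in the matrix, gave 0.04 in quadriceps and 0.00 in soleus, neither past the test.

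The dicarboxylate carrier Slc25a10 (chromosome 11, 120491837 to 120501161), which exchanges malate or succinate for phosphate and is abundant in white fat, rose in quadriceps. Control quadriceps read 5.91 to 6.63 (median 6.14) and cKO quadriceps 6.34 to 7.62 (median 6.68). The change was 0.57 (1.48-fold, SE 0.15, limma adjusted p = 0.00294), or 0.40 without cKO 2, the array at 7.62 (adjusted p = 0.00596). In soleus the ranges were 5.91 to 6.40 (median 6.14) and 6.19 to 6.47 (median 6.34), a change of 0.18 (SE 0.15, adjusted p = 0.403). The difference between muscles was 0.38 (SE 0.21, adjusted p = 0.237).

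Within each genotype, the highest quadriceps value of Slc25a10 came from the array with the most adipocyte signal. The mean log2 value of the 7 adipocyte markers was 9.67 on quadriceps cKO 2, against 8.11 to 8.44 on the other cKO arrays, and 8.64 on quadriceps control 3, against 7.32 to 7.65 on the other controls. Slc25a10 was highest of its group on both (7.62 and 6.63). So was Slc25a1, the citrate carrier that exports carbon for fatty acid synthesis (chromosome 16, 17925211 to 17928219), at 9.30 on cKO 2 and 9.17 on control 3. Both arrays were extreme in other marker lists as well. Each had the highest progenitor mean of its group (10.10 on cKO 2, 9.83 on control 3). Each also had the highest brown adipocyte mean (7.46 and 8.08). Control 3 had the highest macrophage mean (6.48), and cKO 2 the lowest fast fibre (12.24) and muscle identity (11.98) means. The log2 of the summed adipocyte signal ran from 10.78 to 11.91 in control and 11.55 to 12.91 in cKO quadriceps, and from 10.55 to 11.16 and 10.43 to 11.52 in soleus. In quadriceps 5 of 7 adipocyte markers rose and in soleus limma called 0 of 7 (1 of 7, Cidec, at an unadjusted p under 0.05). The part of any of these lists in both carriers was not tested.

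Slc25a1 itself did not pass in either muscle. It ran from 6.94 to 9.17 (median 7.62) in control and 7.48 to 9.30 (median 8.21) in cKO quadriceps (0.53, SE 0.30, limma adjusted p = 0.159). Without quadriceps control 3 the adjusted p was 0.0143. In soleus it ran from 6.32 to 7.44 (median 6.62) and 6.60 to 7.92 (median 6.96), with a change of 0.38 (SE 0.30, adjusted p = 0.409). The highest soleus values were those of control 1 and cKO 3, which also had the highest adipocyte means of their groups (7.59 and 8.21). Control 1 had the highest slow fibre mean of its group too (11.97), and cKO 3 the highest fast fibre mean (11.05).

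The glutamate carriers Slc25a18 and Slc25a22 were not called in either muscle. Slc25a18 changed by -0.04 in quadriceps and -0.17 in soleus, both with an SE of 0.08. Slc25a22 ran from 5.82 to 6.78 (median 6.27) in control and 5.65 to 6.37 (median 5.93) in cKO soleus. Its change of -0.36 (SE 0.15) had an adjusted p of 0.0875, which was 0.0121 with the replicate number as a block and 0.0768 with the animal as a random block.

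Slc25a20, the carnitine/acylcarnitine carrier (chromosome 9, 108662136 to 108684642), through which long-chain fatty acids enter the matrix, fell in both muscles. Control soleus read 9.07 to 9.57 (median 9.17) and cKO soleus 8.67 to 9.12 (median 8.76), overlapping only through cKO 6 at 9.12. In quadriceps, 5 controls lay between 8.92 and 9.17 and control 4 at 8.32, against 8.44 to 8.78 (median 8.55) in cKO. The changes were -0.41 (SE 0.11, limma adjusted p = 0.00817) and -0.30 (SE 0.11, adjusted p = 0.0347), and -0.41 in quadriceps without control 4 (adjusted p = 0.000925). The quadriceps call of Slc25a20 was lost with median centring (adjusted p = 0.0503), with only the quadriceps arrays (0.0648) and without control 1, 2, 3, 5 or 6 or cKO 1, 2, 3 or 6 (0.0545 to 0.0815).

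Other genes of the carnitine system were read beside it. Cpt2, which reforms acyl-CoA in the matrix, changed by -0.40 (SE 0.12, limma adjusted p = 0.0084) in quadriceps and -0.63 (SE 0.12, adjusted p = 0.000213) in soleus. Crat, the carnitine acetyltransferase, changed by -0.29 and -0.38. Cpt1a, the outer membrane form found in many tissues, rose in quadriceps by 0.58 (SE 0.16, adjusted p = 0.00436). Of the 4 carnitine system genes tested, 2 fell and 1 rose in quadriceps, and 3 fell in soleus; Cpt1b was not tested.

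Among carriers of other amino acids, Slc25a29, which moves basic amino acids, fell in quadriceps. It read 5.11 to 5.81 (median 5.31) in control and 4.88 to 5.31 (median 5.10) in cKO, and the ranges overlapped. The change was -0.33 (SE 0.12, limma adjusted p = 0.0264), beside -0.16 (SE 0.12, adjusted p = 0.353) in soleus. Without quadriceps control 5, control 6 or cKO 5 the quadriceps call was lost (adjusted p = 0.0837, 0.0648 and 0.0691).

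Slc25a44, a carrier of branched-chain amino acids, ran from 6.61 to 7.44 (median 7.36) in control and 6.85 to 7.19 (median 6.98) in cKO quadriceps, and control 4 was the lowest. Its change of -0.24 (SE 0.11, limma adjusted p = 0.0991) was -0.36 without control 4 (adjusted p = 0.00181). The glycine carrier Slc25a38 was at -0.08 (SE 0.12, adjusted p = 0.588) with all arrays and -0.22 (adjusted p = 0.0352) without control 4, which read 6.21 where the other controls read at least 6.90. The ornithine carrier Slc25a15 changed by -0.14 in quadriceps and -0.18 in soleus (SE 0.10 for both), and neither passed. Oat, the matrix enzyme that breaks down ornithine, changed by -0.84 (adjusted p = 5.78e-10) in quadriceps and -0.82 (adjusted p = 1.94e-09) in soleus.

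**Figure D3:**
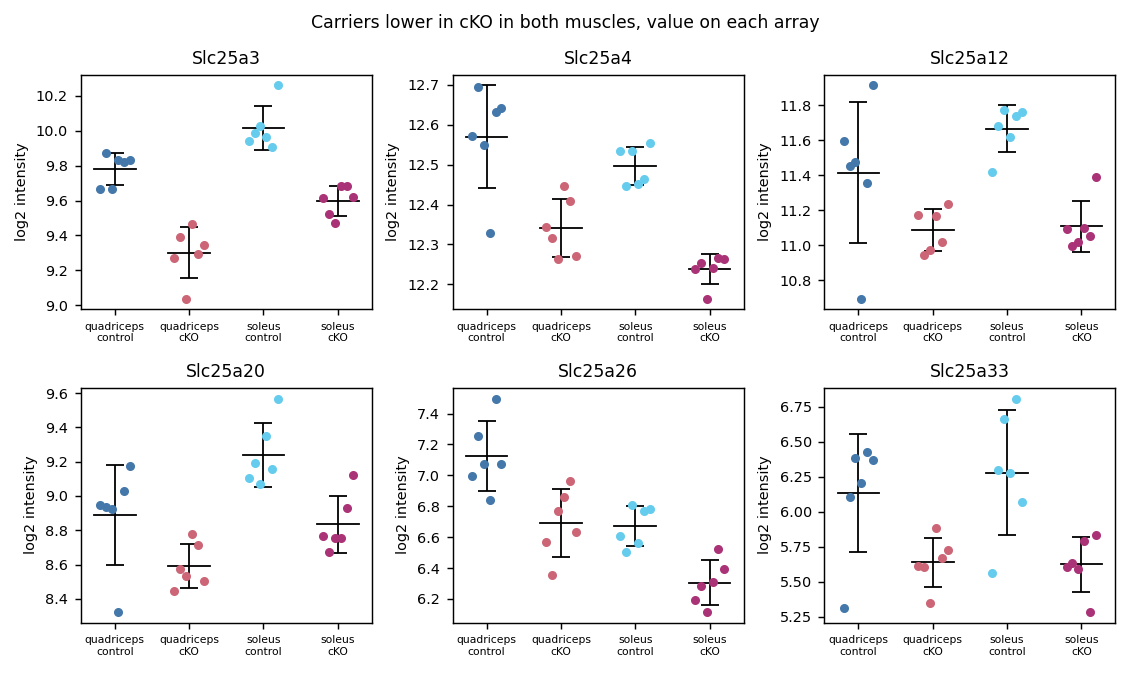
Log2 intensity on each array (points) with group mean and SD (bars) for the 6 carriers that fell in both muscles; vertical scales differ between panels. Slc25a3 separates by genotype in both muscles, and 1 low control quadriceps array is seen for Slc25a4, Slc25a12 and Slc25a20 (control 4) and for Slc25a33 (control 1).

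Carriers of nucleotides and cofactors counted 4 lower and 1 higher of 8 tested in quadriceps, and 2 lower in soleus. Slc25a26, which brings S-adenosylmethionine into the matrix (chromosome 6, 94500295 to 94604659), fell in both. Its quadriceps values were 6.84 to 7.50 (median 7.07) in control and 6.36 to 6.96 (median 6.70) in cKO, and its soleus values 6.50 to 6.81 (median 6.69) and 6.12 to 6.53 (median 6.29). The groups touched at 1 control array in each muscle. The changes were -0.43 (SE 0.10, limma adjusted p = 0.00174) and -0.37 (SE 0.10, adjusted p = 0.0102).

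Slc25a33, a pyrimidine nucleotide carrier (chromosome 4, 149744036 to 149774267), ran from 5.31 to 6.43 (median 6.29) in control and 5.35 to 5.89 (median 5.64) in cKO quadriceps. In soleus it ran from 5.56 to 6.81 (median 6.29) and 5.29 to 5.84 (median 5.62). In both muscles control 1 was the lowest control and the other controls lay above every cKO array. The fall was -0.49 (SE 0.17, limma adjusted p = 0.0252) in quadriceps and -0.65 (SE 0.17, adjusted p = 0.00618) in soleus. In quadriceps the call was lost without control 3 (adjusted p = 0.0555), control 5 (0.0622), cKO 3 (0.0571) or the 3 arrays of lowest weight (0.0548). Without quadriceps control 1 the quadriceps change was -0.66 (adjusted p = 0.00118).

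Slc25a42, the coenzyme A carrier (chromosome 8, 70184340 to 70212281), fell in quadriceps from 7.21 to 7.88 (median 7.41) in control to 6.65 to 7.26 (median 7.02) in cKO, with 1 control array inside the cKO range. The change was -0.52 (1.43-fold, SE 0.15, limma adjusted p = 0.00776). The soleus change was -0.27 (SE 0.15, adjusted p = 0.211), with an adjusted p of 0.034 when the replicate number was a block and 0.182 with the animal as a random block. Of 6 genes for coenzyme A synthesis, Pank3 rose in quadriceps (0.31, adjusted p = 0.0383) and Pank1, the first enzyme of the pathway in its form from oxidative tissues, fell in soleus (-1.33, SE 0.15, adjusted p = 2.86e-07).

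Slc25a51, the NAD carrier, read 7.79 to 8.15 (median 7.93) in control and 7.60 to 7.83 (median 7.70) in cKO quadriceps. The groups met only at control 1, and the fall was -0.24 (SE 0.08, limma adjusted p = 0.0145); in soleus the change was -0.12 (SE 0.08, adjusted p = 0.299). The folate carrier Slc25a32 (-0.14 and -0.06) and Slc25a16 (-0.15 and -0.24) passed in neither muscle.

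Slc25a17, the carrier of the peroxisomal membrane (chromosome 15, 81318921 to 81360765), rose in quadriceps, gave a negative value in soleus, and passed the test for the difference between them. In quadriceps it read 6.66 to 7.22 (median 6.99) in control and 7.22 to 7.84 (median 7.34) in cKO. In soleus it read 6.51 to 7.37 (median 7.20) in control and 6.65 to 6.89 (median 6.80) in cKO. In quadriceps the groups met only at 7.22, and in soleus control 1, at 6.51, was below all cKO arrays while the other controls were above them. The quadriceps rise was 0.43 (1.35-fold, SE 0.13, limma adjusted p = 0.00783). The soleus change was -0.34 (SE 0.13, adjusted p = 0.0541), with 0.0482 under the animal as a random block, 0.0196 under the replicate number as a block, and -0.46 (adjusted p = 0.00221) without soleus control 1. The 2 changes differed by 0.77 (SE 0.18, adjusted p = 0.00518; 0.000176 to 0.0139 over 36 alternatives). Quadriceps cKO 2, with the highest adipocyte, progenitor and brown adipocyte means of its group, was also the highest for Slc25a17 at 7.84.

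Slc25a36, the second pyrimidine nucleotide carrier (chromosome 9, 97075281 to 97111041), ran from 7.53 to 8.85 (median 8.14) in control and 8.26 to 9.04 (median 8.52) in cKO quadriceps. The change of 0.47 (SE 0.19) had a limma adjusted p of 0.0551, which was 0.00539 with the replicate number as a block and 0.0471 with the animal as a random block. In soleus the change was 0.00 (SE 0.19, adjusted p = 0.993).

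Iron and glutathione carriers fell in quadriceps in 2 of 4 cases. Slc25a28 (mitoferrin 2, an iron importer, chromosome 19, 43663801 to 43675006) read 7.06 to 7.21 (median 7.12) in control and 6.69 to 6.93 (median 6.87) in cKO quadriceps, without overlap. In soleus the ranges of 7.02 to 7.25 (median 7.11) and 6.97 to 7.12 (median 7.08) overlapped. The changes were -0.30 (SE 0.06, limma adjusted p = 0.000364) and -0.05 (SE 0.06, adjusted p = 0.596), and their difference was -0.24 (SE 0.09, adjusted p = 0.0621). With the animal as a random block the adjusted p of that difference was 0.0314, and with the replicate number as a block 0.0754. Without quadriceps control 4 it was 0.0455 and without soleus control 1 it was 0.0288.

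The glutathione carrier Slc25a39 read 7.68 to 8.08 (median 7.88) in control and 7.47 to 7.84 (median 7.63) in cKO quadriceps. The groups overlapped, and the change was -0.24 (SE 0.08, limma adjusted p = 0.0201), beside -0.19 (SE 0.08, adjusted p = 0.0865) in soleus. Its quadriceps call was lost with only the quadriceps arrays in the fit (adjusted p = 0.0587) and without control 2 (0.0514), control 5 (0.0576) or cKO 6 (0.055). Slc25a37 (mitoferrin 1) changed by -0.12 and -0.21 (SE 0.11) and Slc25a40 by -0.11 and -0.14 (SE 0.14), and none of these passed. The 2 probe sets of Slc25a40 gave -0.11 and -0.31 in quadriceps. Of 7 iron and haem genes tested, 5 fell in quadriceps, among them Alas1, the first enzyme of haem synthesis (-0.58, adjusted p = 4.31e-06) and the iron-sulphur scaffold Iscu (-0.41, adjusted p = 0.000219). In soleus Alas1 (-0.81, adjusted p = 5.45e-08) and Cpox (-0.38, adjusted p = 0.023) fell.

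Slc25a34, a carrier whose substrate is not settled (chromosome 4, 141618819 to 141623891), fell in soleus. Its values were 5.29 to 5.98 (median 5.92) in control and 4.91 to 5.40 (median 5.26) in cKO. Control 1, at 5.29, lay among the cKO arrays, and the other 5 controls, from 5.82 up, lay above all of them. The change was -0.63 (1.54-fold, SE 0.15, limma adjusted p = 0.00292) in soleus and -0.14 (SE 0.15, adjusted p = 0.483) in quadriceps, where the ranges of 4.84 to 5.66 (median 5.07) and 4.69 to 5.64 (median 4.99) coincided. The difference of 0.49 (SE 0.21) had an adjusted p of 0.139, which was 0.0454 without soleus control 1.

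Slc25a14, Slc25a27 and Slc25a30, relatives of the uncoupling proteins, did not pass in either muscle, nor did the other 7 carriers grouped with Slc25a34. The relatives changed by -0.21 to 0.03 in quadriceps and -0.10 to 0.09 in soleus. For Slc25a27 the quadriceps adjusted p of 0.0678 (change -0.21, SE 0.09) was 0.0459 with the replicate number as a block and 0.0645 with the animal as a random block. Slc25a46, which lies in the outer membrane and acts in mitochondrial shape, changed by 0.09 and -0.08 (SE 0.07). For Slc25a35, Slc25a43, Slc25a45, Slc25a47, Slc25a48 and Slc25a53 the quadriceps changes lay between -0.23 and 0.08 and the soleus changes between -0.21 and 0.16.

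Genes that work with the carriers were read from lists drawn up beside the members. Over all genes tested, 22.3% rose and 17.7% fell in quadriceps, and 13.2% rose and 9.94% fell in soleus. The voltage-dependent anion channels of the outer membrane, through which carrier substrates pass, fell for 2 of 3 genes in each muscle: Vdac1 changed by -0.50 (SE 0.06, limma adjusted p = 7.41e-08) in quadriceps and -0.42 (SE 0.06, adjusted p = 2.54e-06) in soleus, and Vdac3 by -0.57 and -0.44. Of 15 ATP synthase genes, 8 fell and 1 rose in quadriceps, and 3 fell and 1 rose in soleus. The one that rose in both was Atpif1, the inhibitor of the enzyme (0.69 and 0.56), and Atp5g3 fell in both (-0.48 and -0.48). The list medians were -0.29 and -0.15 for ATP synthase and -0.50 and -0.42 for the channels, beside -0.01 and -0.02 for all genes.

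Other inner membrane transport proteins moved both ways. Of 12 tested, 6 rose and 3 fell in quadriceps, and 3 rose and 2 fell in soleus. Mpc1, a subunit of the pyruvate carrier, fell in both, with changes of -0.48 (SE 0.07, limma adjusted p = 8.94e-06) and -0.49 (SE 0.07, adjusted p = 1.3e-05). Micu3, a gatekeeper of the calcium uniporter, fell in quadriceps (-0.97, SE 0.15, adjusted p = 7.27e-06), while Micu2 rose in both muscles (0.49 and 0.37) and the uniporter pore Mcu rose in soleus (0.36, adjusted p = 0.000121). For genes that act in the import of carriers into the inner membrane, 1 of 12 rose and 2 fell in quadriceps (Agk 0.27, Timm8b -0.34, Timm29 -0.27). In soleus 1 rose and 1 fell (Tomm20 0.25, Timm8a1 -0.69). Carrier relatives under other symbols were Mtch1, which rose in both muscles (0.55, adjusted p = 2.28e-05, and 0.32, adjusted p = 0.00921), and Mtch2, Ucp1 and Ucp3, which passed in neither.

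Regulators of mitochondrial content counted 2 higher and 4 lower of 13 in quadriceps, and 4 lower in soleus. All genes tested gave 22.3% higher and 17.7% lower in quadriceps, and 9.94% lower in soleus. Tfb2m fell in both muscles (-0.48 and -0.38), and Esrra (-0.46) and Ppard (-0.39) fell in quadriceps. Ppargc1a, the coactivator PGC-1 alpha, fell in soleus (-1.78, SE 0.31, limma adjusted p = 0.00011) and gave -0.51 (SE 0.31, adjusted p = 0.196) in quadriceps. The difference, 1.26 (SE 0.44), had an adjusted p of 0.0612. Its control soleus arrays were widely spread, from 8.24 to 10.96, beside 7.29 to 8.23 in cKO soleus. Ppara, a fatty acid receptor that drives oxidation genes, changed by -0.52 (adjusted p = 0.0359) in quadriceps and -1.09 (adjusted p = 0.000132) in soleus. Esrrg, an orphan receptor of oxidative muscle, rose in quadriceps (1.20, SE 0.24, adjusted p = 0.000259). Among serine, glycine and folate enzymes Psat1 rose in both muscles (0.74 and 0.39), and Mthfd1l rose in quadriceps (0.46, adjusted p = 0.000624).

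**Figure D4:**
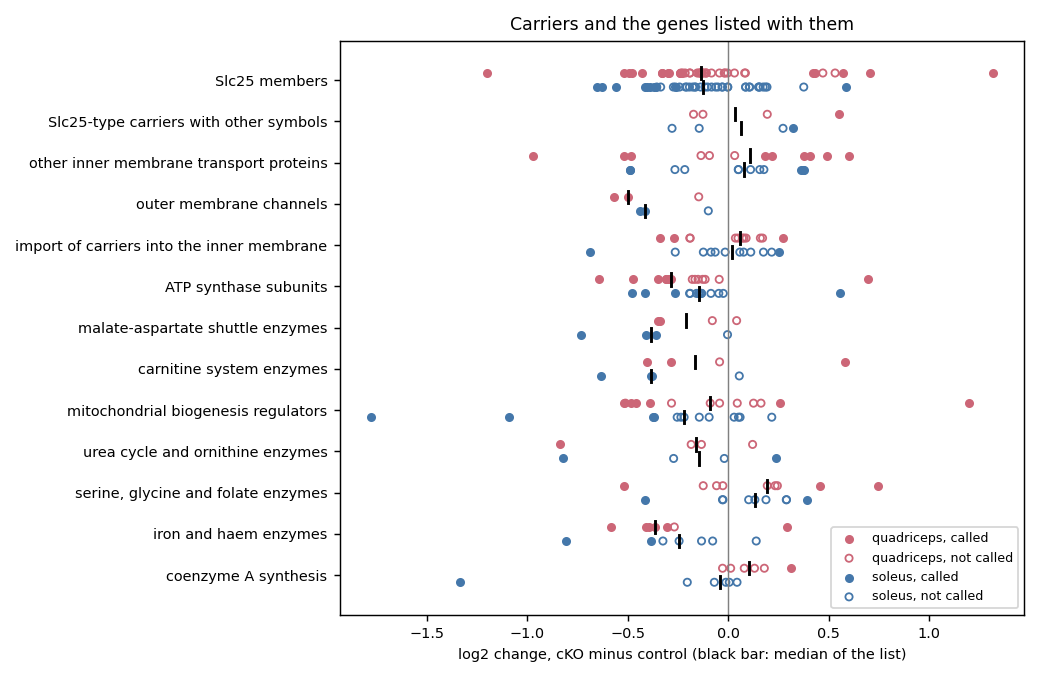
Log2 change, cKO minus control, of the Slc25 members and of each gene in the lists of related genes, in quadriceps (red) and soleus (blue); filled points have an adjusted p under 0.05 and black bars are list medians. The medians of the members are -0.14 and -0.13, those of the outer membrane channels -0.50 and -0.42.

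Soleus was set against quadriceps in the controls to see which carriers differ between a slower and a faster muscle without the knockout. Of 42 carriers, 19 differed (45.2%, against 33.5% of all genes tested): 9 were higher in soleus (21.4%, against 15.2%) and 10 lower (23.8%, against 18.3%). The split depends on scaling: centring on the median gave 4 higher and 13 lower, and on the 75th percentile 10 and 9, while the share of calls higher over all genes went from 45.4% as deposited to 22.3% and 56.2%. All 10 slow fibre markers were higher in control soleus, 9 of 11 fast fibre markers were lower and 5 of 7 endothelial markers were higher; the log2 of the summed slow fibre signal was 12.01 to 13.48 in control quadriceps and 15.02 to 15.52 in control soleus, and that of the fast fibre signal 15.98 to 16.10 and 15.11 to 15.59. Their part in the carrier differences was not tested.

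Higher in control soleus were Slc25a36 (1.05, 2.08-fold, SE 0.19, limma adjusted p = 0.00013), Slc25a23 (0.71, SE 0.11, adjusted p = 2.34e-05) and the glutamate carrier Slc25a22 (0.59, SE 0.15, adjusted p = 0.00292). Slc25a36 ran from 8.68 to 9.67 (median 9.14) in control soleus against 7.53 to 8.85 in control quadriceps, overlapping through 1 array of each. Slc25a23 did not overlap between the control muscles, nor did Slc25a3, and these were the 2 higher carriers of that kind (4.76%, against 3.94% of all genes). Slc25a34 followed at 0.59 (SE 0.15, adjusted p = 0.00358). In cKO its soleus mean was 0.10 above the quadriceps mean (adjusted p = 0.639). That the control and cKO muscles differ in this was not shown (adjusted p of the difference 0.139). Slc25a20 (0.35), Slc25a13 (0.33), Slc25a45 (0.24), Slc25a18 (0.24) and Slc25a3 (0.23) were higher by less. All 5 lost their call with median centring (adjusted p = 0.13 for Slc25a20, 0.138 for Slc25a13, 0.236 for Slc25a45, 0.185 for Slc25a18 and 0.267 for Slc25a3).

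Lower in control soleus by the largest amounts were Slc25a25 (-1.30, 2.46-fold, SE 0.31, limma adjusted p = 0.00194), Slc25a1 (-1.02, SE 0.30, adjusted p = 0.00996) and mitoferrin 1, Slc25a37 (-0.74, 1.67-fold, SE 0.11, adjusted p = 7.48e-06). Slc25a37 ran from 6.42 to 6.98 (median 6.88) in control quadriceps and 5.78 to 6.45 (median 6.00) in control soleus, overlapping through quadriceps control 4 at 6.42 and soleus control 5 at 6.45. Slc25a26 (-0.45), Slc25a51 (-0.42), Slc25a39 (-0.37) and Slc25a32 (-0.36) had lower groups that did not overlap (4 carriers, 9.52%, against 7.73% of all genes). Slc25a44 (-0.35), Slc25a16 (-0.30) and Slc25a27 (-0.26) completed the 10. Of these, the call of Slc25a32 was lost without quadriceps control 6 (adjusted p = 0.0685) or soleus control 1 (0.077), that of Slc25a44 without quadriceps control 5 (0.0529) and that of Slc25a16 without quadriceps control 6 (0.0515). Slc25a27 was lost without quadriceps control 1, 5 or 6 or soleus control 1 or 2 (0.0507 to 0.109). Slc25a14, at -0.21 (adjusted p = 0.0563), had an adjusted p of 0.0151 with the replicate number as a block and 0.0238 with the animal as a random block.

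Of the 7 adipocyte markers, 1 was lower in soleus than in quadriceps in the controls and 6 were lower in cKO. Of the 5 brown adipocyte markers, 3 were lower in control soleus and 1 was higher (median -1.24), and 2 were lower in cKO soleus. The log2 of their summed signal ran from 9.19 to 11.37 in control quadriceps and from 8.93 to 11.05 in control soleus. Ucp1, the uncoupling protein of brown fat, averaged 8.30 and 4.46 in these groups. Ppargc1a, which is in this list and also among the regulators of mitochondrial content, averaged 8.73 and 9.55. In control soleus Cidea averaged 6.05 and Dio2 5.74, and Elovl3 was above the dim limit on only 6 arrays of the series. The sum in control soleus thus follows mainly Ppargc1a and is not a measure of brown fat there. Quadriceps control 3, the highest control array for Slc25a1, also had the highest brown adipocyte mean among the controls (8.08). Its control values were 6.32 to 7.44 in soleus and 6.94 to 9.17 in quadriceps, and the part of either kind of fat in this difference was not tested.

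In the cKO mice 17 of 42 carriers differed between the muscles (40.5%, against 28.8% of all genes): 7 were higher in soleus (16.7%, against 11.9%) and 10 lower (23.8%, against 16.9%). With 75th percentile centring the split was 12 higher and 8 lower and with median centring 4 and 13, and over all genes the share of calls that were higher was 41.3% as deposited, 68.6% and 23.95%. Slc25a24, equal in the control muscles (0.00, SE 0.11), was 0.73 lower in cKO soleus than in cKO quadriceps (change -0.73, SE 0.11, limma adjusted p = 3.65e-05). Slc25a17 (-0.63, adjusted p = 0.000572) and Slc25a5 (-0.34, adjusted p = 0.0218) also stood lower in cKO soleus, at 0.14 and 0.19 in the control muscles (neither passed). These 3 are the carriers whose change differed between the muscles. Slc25a10 (-0.43), Slc25a28 (0.22), Slc25a41 (0.33) and Slc25a43 (0.28) were likewise called between the cKO muscles and not between the control muscles. For them a difference of the changes was not shown. Groups did not overlap for 4 carriers higher in cKO soleus (9.52%, against 5.33% of all genes) and for 5 lower (11.9%, against 10.6%). Slc25a5 lost its call in cKO without quadriceps cKO 2 (adjusted p = 0.0606).

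Slc25a25 showed -0.36 (SE 0.31, limma adjusted p = 0.39) between the cKO muscles, beside -1.30 between the control muscles. A difference between these values was not shown (adjusted p = 0.168). Slc25a37 (-0.84, adjusted p = 3.01e-06) and Slc25a1 (-1.17, adjusted p = 0.00499) stayed lower in soleus, and Slc25a23 (0.48, adjusted p = 0.00265) and Slc25a36 (0.58, adjusted p = 0.0263) higher. The call of Slc25a36 was lost without quadriceps cKO 5 (adjusted p = 0.0683), soleus cKO 1 (0.0745) or soleus cKO 4 (0.0522). With both kinds of block Slc25a14, Slc25a22, Slc25a32 and Slc25a53 were called as well, at adjusted p between 0.00943 and 0.0438, and with the random block Slc25a46 at 0.0471.

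**Figure D5:**
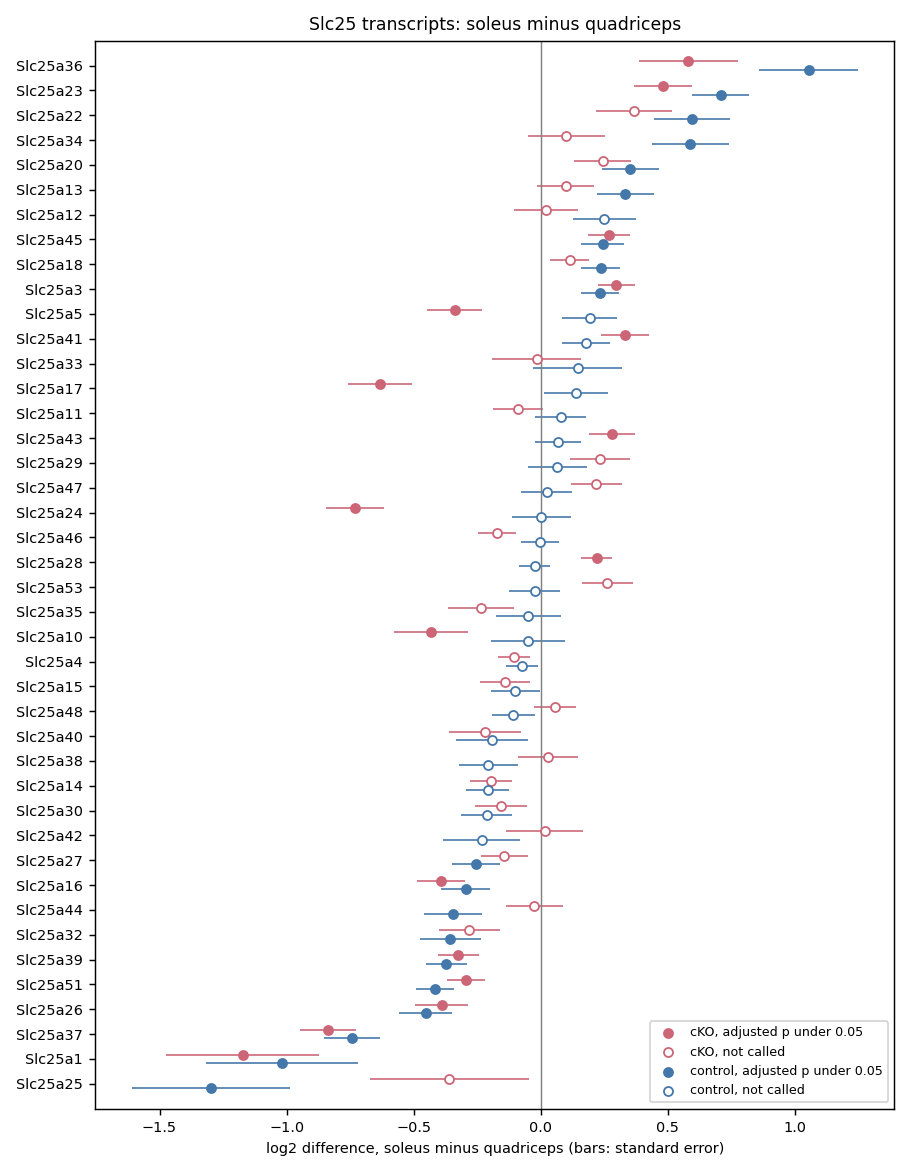
Log2 difference, soleus minus quadriceps, of the 42 tested carriers in control (blue) and cKO (red) mice with standard errors; filled points have an adjusted p under 0.05. Slc25a36 lies at the right end in both genotypes (1.05 and 0.58). Filled in cKO alone are Slc25a24, Slc25a17, Slc25a5, Slc25a10, Slc25a28, Slc25a41 and Slc25a43.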

How the data were processed

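RNA of quadriceps and soleus was hybridised to Affymetrix arrays after biotin labelling, per the labels' protocols. The deposited values are 1 intensity per probe set and array on a linear scale. The submitters' processing notes name Affymetrix Expression Console, RMA (background correction, normalization across arrays, probe set summary) and mm10, with no version or setting. Deposited intensities were turned to log2 here.

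Of 35557 probe sets 21789 have 1 symbol, 1621 several and 12147 none listed; only the first kind was used, with symbols updated through Entrez numbers (21698 matched). Genes above the 30th percentile of an array on at least 6 arrays were kept. One limma model of 4 group means (limma 3.58.1 in R 4.3.3; 24 arrays, 20 residual degrees of freedom, default eBayes) gave all contrasts, with Benjamini-Hochberg adjustment over 15999 genes. The fit was tested on simulated data. The labels describe biological replicates; array number limits the precision, with a median SE of 0.10 within a muscle. Depth in reads does not apply to arrays.

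Members and lists were chosen with earlier results of these data known. Named in full were called carriers, up to 12 each way per cKO comparison and up to 8 each way between control muscles, and up to 4 genes of each related list, by smallest p. Fewer are named in the text, which adds uncalled carriers and Ppargc1a in quadriceps, the difference of Ppargc1a, and Ppara in quadriceps outside this rule. Quadriceps and soleus arrays of 1 genotype and number deviated together (r between 0.155 and 0.305 in controls, 0.216 and 0.45 in cKO, 6 of 6 pairs above 0.1 in each). The random block therefore treated them as muscles of 1 animal. The block by replicate number also joined control and cKO arrays of the same number, which come from different mice. Between control and cKO quadriceps, arrays of the same number had r between -0.147 and 0.169. The labels differ for the cKO arrays numbered 4, with an age of 40 days for quadriceps and 41 for soleus. With shared animals the 24 arrays would not be 24 separate mice. Alternatives covered dim filter, scaling, probe set choice, an offset of 16 before log2, prior, array weights, blocks, samples in the fit and leaving out each array.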

Additional observations from a re-analysis of the deposited data

Results flagged for a closer look

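In 17 of 168 groups of 6 arrays, where chance gives about 8.4, the most extreme array of a carrier lay apart from the other 5 by Dixon's criterion. Quadriceps control 4 was that array for 5 carriers, reading 4.97 for Slc25a14 (above the others) and 8.32 for Slc25a20, 6.21 for Slc25a38, 6.61 for Slc25a44 and 5.02 for Slc25a45 (below them). Soleus control 1 was that array for 4 carriers, reading 6.51 for Slc25a17, 6.18 for Slc25a32 and 5.29 for Slc25a34 (below the others) and 5.46 for Slc25a47 (above them). Among the controls of its muscle, quadriceps control 4 had the lowest mean of the skeletal muscle identity markers (11.81), while soleus control 1 had the highest (12.17). Soleus control 1 also had the highest slow fibre mean (11.97), and quadriceps control 4 was not extreme there (8.73). Both had the lowest fast fibre mean (12.46 in quadriceps, 11.10 in soleus). They were extreme in some other marker lists too. The remaining 8 were spread over other arrays. Slc25a33 read 5.31 on quadriceps control 1, below its group. Slc25a10 read 7.62 on quadriceps cKO 2 and Slc25a43 5.31 on quadriceps cKO 3, both above, while Slc25a41 read 3.62 on quadriceps cKO 5, below. In soleus, Slc25a27 read 5.79 on control 2, below, and Slc25a3 10.26 on control 6, above; Slc25a4 read 12.16 on cKO 3, below, and Slc25a12 11.39 on cKO 6, above.

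For 3 carriers the change in quadriceps differed from that in soleus by the test of the difference itself: Slc25a17 by 0.77 log2 units, Slc25a24 by 0.73 and Slc25a5 by 0.53 (limma adjusted p = 0.00518, 0.00359 and 0.0232).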

How the results depend on the processing

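No carrier's called change reversed under 37 alternatives, 24 of which leave out 1 array each. All 10 soleus calls held under every alternative that tested them; the stricter dim filter did not test 1 of them. In quadriceps 12 of 17 calls held under all, and those of Slc25a12, Slc25a20, Slc25a29, Slc25a33 and Slc25a39 did not. The number of carriers called in quadriceps was 17, and 14 to 24 by setting, with 5 higher and 9 lower when only the quadriceps arrays entered the fit. With the replicate number as a block (replicate block) it was 19 in quadriceps, 13 in soleus, 4 for the difference, 20 between control and 21 between cKO muscles, and with the animal as a random block 18, 11, 4, 20 and 22. Leaving out 1 array gave 14 (without quadriceps control 5) to 20 (without quadriceps control 4) in quadriceps, 10 to 12 in soleus, 16 to 20 between control muscles and 14 to 21 between cKO muscles. For the difference it gave 3 to 6, with 6 without quadriceps control 4 and 5 without soleus control 1. Array weights gave 9 carriers for the difference, 5 higher and 4 lower, and so did leaving out the 3 arrays of lowest weight, 9 in all, a setting chosen after seeing the data. With median centring the difference was called for 3 carriers, Slc25a17 and Slc25a24 among them, but not for Slc25a5. The fit with only the groups compared cannot give the difference and was not run for it. The causes were not tested. Precision is limited by 6 arrays a group, and dim carriers lie close to the background.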
